A study of Mus musculus with 16 samples.

Results

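The nuclear lamina and the envelope proteins that hold chromatin to it were examined here as a group of 9 genes. These were picked by name from the 56748 genes of the deposited tables, with earlier results of these data known. The 9 genes encode the lamins (Lmnb1, Lmnb2 and Lmna), chromatin receptors of the inner nuclear membrane (Lbr, Tmpo and Lemd3), the DNA-bridging factor Banf1 and the SUN proteins Sun1 and Sun2. Memory T cells, gated as CD4+ cells with low or no CD25, no CD62L and high CD44, had been sorted from the spleen of male mice of a mixed background that includes C57BL/6, aged 6 to 12 weeks, and their polyadenylated RNA was sequenced in 16 samples, 4 in each of 4 groups. In the HP1α line, the floxed Hp1a (Cbx5) allele had been excised by CMV-cre, which is active in all tissues, and HP1α KO mice were set beside WT littermates. In the HP1γ line, HP1γ KO mice carried the floxed Hp1g (Cbx3) allele on both chromosomes together with Cd4-cre, which is active in T cells, and their WT littermates carried the same floxed allele without Cre. Cre and the loss of HP1γ therefore cannot be told apart in that line. Strain background, which may differ between the lines, breeding, litter and housing also cannot be told apart from line wherever the lines are compared. The labels do not say whether the samples of a group came from separate mice, so that each p measures the spread between these samples.

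Lamins are intermediate filament proteins that form a mesh under the inner nuclear membrane. Heterochromatin is held against this mesh by membrane proteins, among which the lamin B receptor (Lbr) binds lamin B and HP1 proteins and is also a sterol reductase, while products of Tmpo (LAP2) and Lemd3 (MAN1) carry a LEM domain that binds Banf1 (BAF), a small protein that bridges DNA. SUN proteins span the inner membrane and join the lamina to the cytoskeleton. In lymphocytes Lbr and B-type lamins are abundant, and Lmna, which encodes lamins A and C, is known to be induced on T cell activation.

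The count per sample lay between 26694045 and 40199637, and all 9 genes passed the filter on low counts in every comparison. Raw counts ranged from 444 for Lmnb2 in 1 HP1γ KO sample to 24421 for Sun2 in 1 HP1α KO sample. Levels are given as CPM, counts scaled to library size after TMM, when samples are compared, and as TPM, which also correct for transcript length, when genes are compared. Cbx5, the gene targeted in the HP1α line, measured 29.0, 27.9, 23.0 and 29.2 CPM in HP1α KO and 38.1, 54.6, 35.6 and 33.9 CPM in WT. The groups did not overlap, yet the fit across all genes did not call Cbx5 (log2 fold change -0.58, adjusted p = 0.946, edgeR quasi-likelihood test with Benjamini-Hochberg adjustment). For protein, the paper reports from western blots that HP1α was absent in naive CD4+ T cells of these KO mice. Cbx3 fell in HP1γ KO, with 45.4 to 49.3 CPM beside 73.4 to 91.9 CPM in WT (log2 fold change -0.82, adjusted p = 0.0015, same test). The CD4 T cell markers Cd4, Cd3e, Cd3d, Cd3g, Cd28 and Trbc2 summed to between 3332 and 3921 CPM in every sample, the 2 CD8 markers to at most 18.4 CPM and the 8 B cell markers to at most 30.0 CPM. Myeloid markers (7 of 7 detected in each group) summed to 37.2, 39.1, 87.5 and 90.2 CPM in HP1α WT and to 30.0 to 56.5 CPM in HP1γ WT. Over the 16 samples, the 4 naive markers summed to 318 to 600 CPM and the 3 Treg markers to 191 to 381 CPM. The 3 erythroid markers summed to 10.4 to 729 CPM. The part of the myeloid and of these other markers in the results between lines was not tested.

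The 300 bases around a transcription start were read from RefSeq (GRCm38.p6, a build older than the GRCm39 of the files) for Lemd3 and Lmna, which differed between the lines, as did Lmnb1. The Lemd3 window is chr10:120979281-120979580. The Lmna windows are chr3:88503303-88503602, here called Lmna start 1, and chr3:88493263-88493562, here called Lmna start 2, which belong to different start sites. The Lbr window, chr1:181842352-181842651, is shown for contrast because Lbr lay on the other side of 0 in those comparisons. All 4 are on the minus strand and are written 5′ to 3′, from 250 bases before the start to 50 after it. Capitals mark the CCAAT box (CCAAT), the GC box (GGGCGG) and the AP-1 element (TGANTCA), searched on both strands, and no match overlapped one of another motif.
Lemd3: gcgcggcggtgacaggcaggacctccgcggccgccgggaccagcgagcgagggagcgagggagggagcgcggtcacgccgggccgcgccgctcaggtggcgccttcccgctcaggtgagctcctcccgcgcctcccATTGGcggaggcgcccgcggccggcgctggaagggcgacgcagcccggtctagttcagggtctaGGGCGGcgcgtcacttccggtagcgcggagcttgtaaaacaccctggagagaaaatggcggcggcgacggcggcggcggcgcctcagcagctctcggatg
Lmna start 1: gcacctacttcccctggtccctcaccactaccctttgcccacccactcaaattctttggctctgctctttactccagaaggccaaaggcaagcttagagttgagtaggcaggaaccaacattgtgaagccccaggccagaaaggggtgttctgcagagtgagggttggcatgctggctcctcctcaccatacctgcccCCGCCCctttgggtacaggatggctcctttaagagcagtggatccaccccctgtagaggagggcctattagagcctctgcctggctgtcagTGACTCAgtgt
Lmna start 2: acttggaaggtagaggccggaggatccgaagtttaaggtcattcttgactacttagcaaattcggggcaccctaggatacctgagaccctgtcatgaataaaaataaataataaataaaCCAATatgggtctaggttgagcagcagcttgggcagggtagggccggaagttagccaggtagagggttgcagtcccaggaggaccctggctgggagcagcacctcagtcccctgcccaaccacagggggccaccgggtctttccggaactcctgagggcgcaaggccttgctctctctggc
Lbr: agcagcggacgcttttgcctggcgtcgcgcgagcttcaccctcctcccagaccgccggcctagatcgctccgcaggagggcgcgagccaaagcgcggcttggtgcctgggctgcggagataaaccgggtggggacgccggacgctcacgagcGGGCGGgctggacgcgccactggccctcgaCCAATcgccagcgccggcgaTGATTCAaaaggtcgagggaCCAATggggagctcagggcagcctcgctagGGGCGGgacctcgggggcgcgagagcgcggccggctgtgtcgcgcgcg
RefSeq windows of 8 of the 9 genes were searched, 13 in all, and Lmnb1 was left out of the search. A CCAAT box stood in 8 of these 13 windows and in 37.4% of all 32851 windows of the table, a GC box in 9 and in 35.7%, and an AP-1 element in 2 and in 7.81%. The AP-1 matches were those of Lbr and of Lmna start 1, genes whose differences between lines had opposite signs. The Lemd3 window held 1 CCAAT box on the reverse strand and 1 GC box.

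In the GRCm39 annotation, all 9 genes are protein-coding. Lmna spans chr3:88387454-88417299, Lemd3 chr10:120759304-120815816, Lbr chr1:181641631-181672984, Tmpo chr10:90983375-91017177, Lmnb2 chr10:80737037-80754110, Banf1 chr19:5414660-5417614 and Sun2 chr15:79608271-79626768, all on the minus strand, and Sun1 spans chr5:139185970-139235606 on the plus strand. Lmna and Tmpo overlap no other annotated gene. The exons of the other 7 overlap genes on the opposite strand. Protein-coding genes share 1021 nt with Banf1 (Eif1ad), 1267 nt with Lbr (Dnah14) and 466 nt with Lmnb1 (Marchf3). Long non-coding genes overlap Lmnb2 (Gm66154, with 802 nt shared), Lemd3 (Gm4473, over a span of 9882 bp, and Gm35235, with 170 nt shared), Sun1 (4930520M14Rik) and Sun2 (Gm16575 and Gm16576). The library kit marked strand, but whether the counting used it is not given in the sources used here. Dnah14, Gm4473, 4930520M14Rik and Gm16575 were not among the genes tested, and the values of Eif1ad and Marchf3 are given beside those of Banf1 and Lmnb1.

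Sun2, whose product links the lamina to nesprins, was the most abundant of the 9 transcripts, with a median of 271 TPM over the 16 samples and a range of 237 to 291 TPM. Lmnb1 (lamin B1) followed with a median of 121 TPM, then Lbr with 106 TPM, Tmpo with 94.0 TPM and Banf1 with 80.4 TPM. Lmna had a median of 55.2 TPM, Sun1 47.8 TPM, Lemd3 29.3 TPM and Lmnb2 (lamin B2) 11.0 TPM. B-type lamin RNA was thus mostly Lmnb1. Sun2 stood above and Lmnb2 below the other genes in each of the 16 samples, and no other neighbours in this order had separate ranges.

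The order of the middle genes depended on the line. Lmnb1 lay above Lbr in 8 of 8 samples of the HP1γ line and in 2 of 8 of the HP1α line. Lmna lay above Sun1 in 8 of 8 samples of the HP1γ line and in 2 of 8 of the HP1α line, and Banf1 lay above Lmna in 8 of 8 samples of the HP1α line and in 3 of 8 of the HP1γ line. Lmna had the widest range of the group, from 17.3 to 111 TPM, a 6.41-fold span, against 2.76-fold for Lmnb1, 2.29-fold for Lemd3 and between 1.23-fold and 1.92-fold for the other 6 genes.

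**Figure D1:**
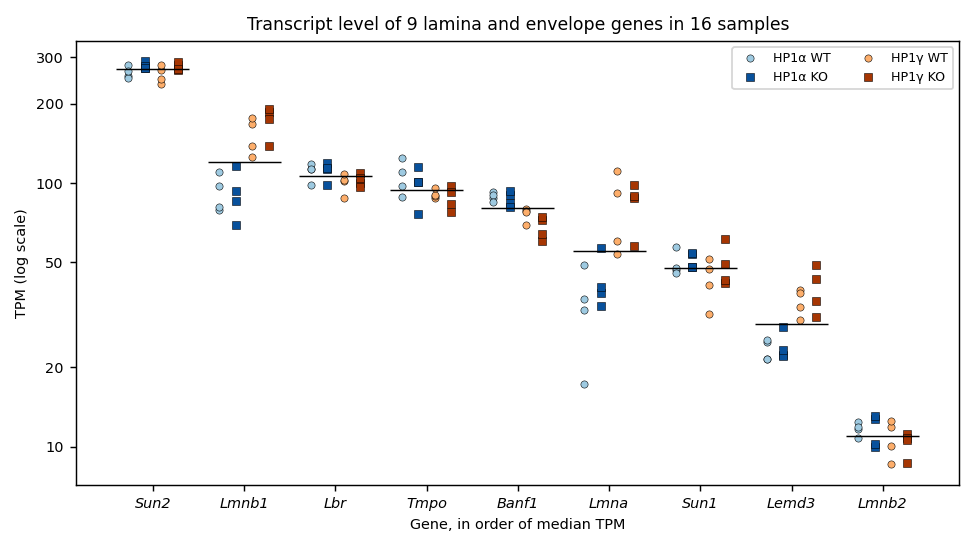
Transcript level (TPM, log axis) of the 9 genes in 16 samples; each point is 1 sample, circles are WT and squares KO, blue is the HP1α line and orange the HP1γ line, and the line marks the median over all samples. Sun2 sits highest at 237 to 291 TPM and Lmnb2 lowest, and Lmna has the widest range, from 17.3 to 111 TPM.

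The first comparison asked whether the loss of HP1α changed the RNA of the lamina genes. None of the 9 was called in HP1α KO against WT, where the adjusted p lay between 0.946 and 1 (edgeR quasi-likelihood test, Benjamini-Hochberg adjustment). None had an unadjusted p under 0.05 in that test, and DESeq2 and limma called none of them either. The background was as empty, with 0% of the 14881 genes tested called, 635 genes (4.27%) at an unadjusted p under 0.05, and 5 genes called by DESeq2. No member's KO and WT samples were separate, beside 3.11% of all genes tested. The log2 fold changes of the 9 ran from -0.11 for Tmpo to 0.29 for Lmna, with a median of 0.01 beside 0.00 over all genes.

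Lbr measured 240, 223, 207 and 222 CPM in HP1α KO and 228, 232, 203 and 223 CPM in WT, and the groups overlapped throughout. Its log2 fold change was 0.01 with a 95% interval from -0.13 to 0.14. The intervals of Banf1 (-0.13 to 0.14), Sun2 (-0.02 to 0.21) and Sun1 (-0.13 to 0.21) were similarly narrow. Lmnb2 (-0.20 to 0.20), Tmpo (-0.31 to 0.10) and Lemd3 (-0.22 to 0.28) were less closely bounded.

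The lamin genes Lmnb1 and Lmna were bounded least. Lmnb1 measured 142, 117, 206 and 153 CPM in HP1α KO and 162, 133, 201 and 140 CPM in WT, with an interval from -0.43 to 0.34. Lmna measured 47.3, 43.8, 73.9 and 50.2 CPM in HP1α KO and 41.6, 21.9, 65.8 and 46.9 CPM in WT, with an interval from -0.34 to 0.92. For Lmna the log2 fold change of 0.29 moved to 0.06 without HP1α WT sample 2 and to 0.55 ± 0.26 (SE) without HP1α WT sample 3. In a fit with same-numbered samples as a block, Lmna stood at 0.35 ± 0.14 (SE). There its p was 0.033 before adjustment and 0.714 after it (edgeR quasi-likelihood test). The HP1α KO sample with the highest Lmna, Lmnb1 and Lemd3 (85.9 CPM, against 62.7 to 65.2 in the other HP1α KO samples) also had the highest sum of myeloid markers (122 CPM) and of plasma cell markers (52.3 CPM) of the group. The part of these cells in the values was not tested.

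**Figure D2:**
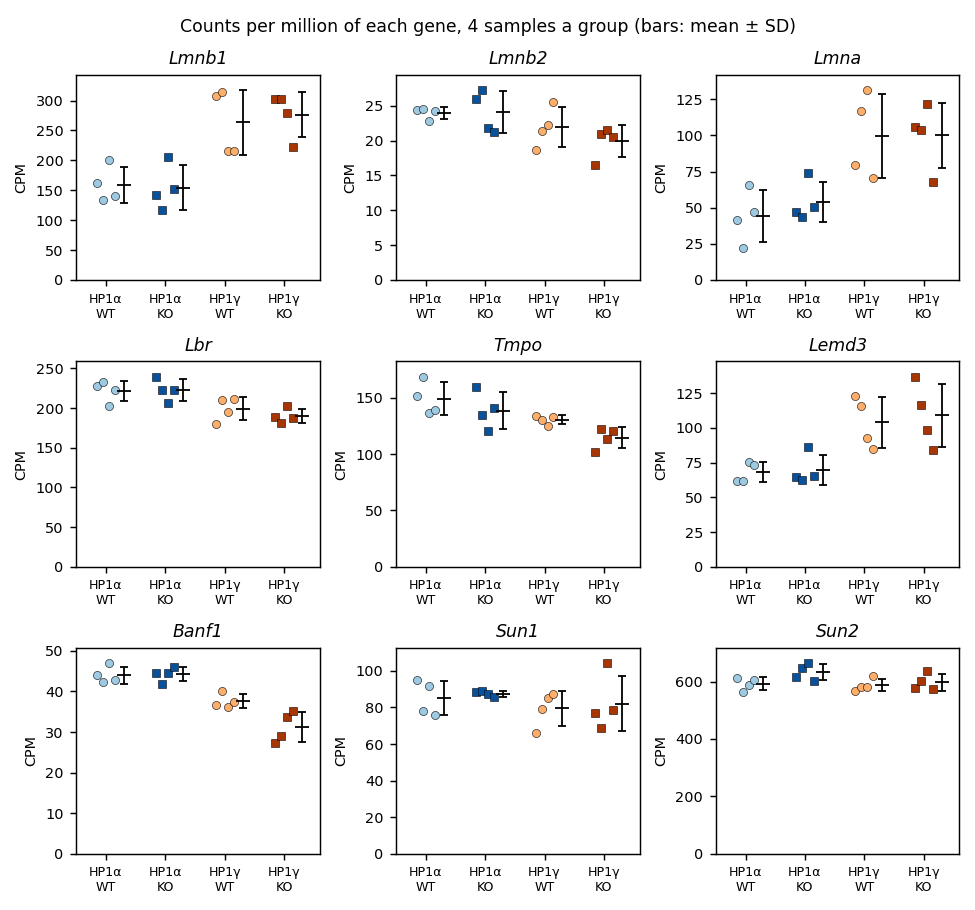
CPM of each gene in 4 groups of 4 samples; points are samples and bars to their right show the mean ± SD. In Lmnb1, Lmna and Lemd3 the WT samples of the HP1α line all lie below those of the HP1γ line, while KO and WT overlap within each line except for Tmpo and Banf1 in the HP1γ line.

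The same question was asked of HP1γ. In HP1γ KO against WT, 49 genes were called, 0.327% of the 14975 tested, and none of the 9 was among them (edgeR quasi-likelihood test, Benjamini-Hochberg adjustment). DESeq2 and limma called none of the 9 either. In 2 of the 9, Tmpo and Banf1, both at an unadjusted p under 0.05, all KO samples lay below all WT samples, while 4.65% of all genes tested separated in this direction and 11.9% had an unadjusted p under 0.05.

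Banf1 measured 27.4, 28.9, 33.7 and 35.2 CPM in HP1γ KO and 36.6, 40.1, 36.3 and 37.4 CPM in WT. In CPM the highest KO sample stood just under the lowest WT sample. On the TPM scale the groups overlapped, with 60.6 to 74.5 TPM in KO and 69.2 to 79.8 TPM in WT. The log2 fold change was -0.24 ± 0.09 (SE), with an adjusted p of 0.353 in the edgeR quasi-likelihood test, and the exact two-sided permutation test gave p = 0.0286, the smallest that 4 against 4 samples allow. Eif1ad, which shares sequence with Banf1, had a log2 fold change of -0.02.

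Tmpo measured 102, 123, 114 and 120 CPM in HP1γ KO and 133, 130, 125 and 133 CPM in WT. Its log2 fold change was -0.16 ± 0.07 (SE), with an adjusted p of 0.385 in the edgeR quasi-likelihood test. On the TPM scale the groups overlapped, with 77.9 to 97.2 TPM in KO and 88.0 to 95.7 TPM in WT. Neither gene can be called changed.

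The other 7 genes overlapped between HP1γ KO and WT. Lbr measured 188, 181, 203 and 187 CPM in KO and 180, 211, 196 and 211 CPM in WT, with a 95% interval of the log2 fold change from -0.20 to 0.10. The intervals were -0.23 to 0.42 for Lmnb1, -0.46 to 0.51 for Lmna, -0.26 to 0.45 for Lemd3, -0.37 to 0.13 for Lmnb2, -0.22 to 0.35 for Sun1 and -0.09 to 0.17 for Sun2.

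An interaction term over the 16 samples tested whether the effect of the KO on a member differed between lines. None of the 9 was called, with 8 genes (0.0507%) called among the 15776 tested (edgeR quasi-likelihood test, Benjamini-Hochberg adjustment), and DESeq2 and limma called no member. Banf1 came closest, with an unadjusted p of 0.025 in the edgeR quasi-likelihood test, an effect 0.26 higher in the HP1α line on the log2 scale (95% interval 0.04 to 0.48) and an adjusted p of 0.458. It was the 1 member with an unadjusted p under 0.05, beside 9.58% of all genes tested. On log2(TPM + 1) the difference for Banf1 was 0.14 (unadjusted p = 0.192, limma). The interval for Lmna, from -0.57 to 1.11, was the widest of the 9.

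Control cells of either line were then compared with each other. In HP1α WT, RNA of Lmnb1, Lmna and Lemd3 was lower than in HP1γ WT, and the other 6 genes did not pass the test. The 3 genes encode the main B-type lamin, lamins A and C, and the LEM-domain protein MAN1, which binds lamins and restrains SMAD signalling. The 3 calls among 9 members stand beside 1896 calls (12.8%) among the 14804 genes tested, of which 1222 (8.25%) were lower in HP1α WT. Samples of the WT groups were separate for 5 of the 9, with 3 lower and 2 (Tmpo and Banf1) higher in HP1α WT, beside 19.6% of all genes tested (10.2% lower and 9.36% higher). The median log2 fold change of the 9 was 0.09, and that of all genes 0.02.

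Lmnb1 measured 162, 133, 201 and 140 CPM in HP1α WT, a mean of 159 ± 30.5 (SD, n = 4). In HP1γ WT it measured 308, 313, 216 and 216 CPM, a mean of 263 ± 54.6 (SD, n = 4). The groups did not overlap, although the highest HP1α WT sample came close to the lower pair of HP1γ WT samples. The log2 fold change was -0.74 ± 0.16 (SE), with an adjusted p of 0.0185 in the edgeR quasi-likelihood test. The overlapping gene Marchf3 had a log2 fold change of -0.04.

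Lmna measured 41.6, 21.9, 65.8 and 46.9 CPM in HP1α WT, a mean of 44.1 ± 18.1 (SD, n = 4), against 79.8, 117, 132 and 70.6 CPM in HP1γ WT, a mean of 99.8 ± 29.3 (SD, n = 4). The gap between the groups was narrow beside the spread within each of them. The log2 fold change was -1.19 ± 0.30 (SE), the largest of the 9 in size and the only one beyond 1 log2 unit, with an adjusted p of 0.0303 in the edgeR quasi-likelihood test. Genes past both the adjusted p and a log2 fold change of 1 in size made up 1.9% of those tested.

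Lemd3 measured 62.0, 61.5, 75.4 and 73.2 CPM in HP1α WT, a mean of 68.0 ± 7.29 (SD, n = 4), against 123, 116, 92.4 and 84.9 CPM in HP1γ WT, a mean of 104 ± 18.02 (SD, n = 4). The HP1α WT samples lay close together and all below the HP1γ WT samples. The log2 fold change was -0.62 ± 0.13 (SE), with an adjusted p of 0.0142 in the edgeR quasi-likelihood test. For Lmnb1, Lmna and Lemd3 the exact two-sided permutation test gave p = 0.0286, the smallest possible.

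These calls rested on few samples. Without HP1α WT sample 1 none of the 3 passed, with adjusted p of 0.0610 for Lmnb1, 0.0921 for Lmna and 0.0551 for Lemd3 (edgeR quasi-likelihood test). The Lmnb1 call was also lost without HP1α WT sample 4 (adjusted p 0.0534), HP1γ WT sample 1 (0.0610) or HP1γ WT sample 2 (0.0583). The Lmna call was also lost without HP1α WT sample 4 (0.0637) or HP1γ WT sample 1 (0.0560), 2 (0.0809) or 3 (0.0613). With each of the 8 WT samples left out in turn the 3 genes stayed lower in HP1α WT, with log2 fold changes of -0.88 to -0.65 for Lmnb1, -1.45 to -0.96 for Lmna and -0.70 to -0.53 for Lemd3. HP1α WT samples 3 and 4 held the most myeloid marker RNA of that group. They also held its highest Lmna (65.8 and 46.9 CPM) and Lemd3 (75.4 and 73.2 CPM). Without both samples, an omission chosen after the data had been seen, all 3 were called, at -0.85, -1.67 and -0.76. Leaving out the highest samples lowers the HP1α WT mean, so this fit cannot decide the part of myeloid cells, which was not tested.

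Among the members that did not pass, Banf1 measured 44.1, 42.3, 46.9 and 42.7 CPM in HP1α WT, all above the 36.3 to 40.1 CPM of HP1γ WT. Its log2 fold change was 0.22 ± 0.07 (SE), with an adjusted p of 0.0644 in the edgeR quasi-likelihood test and 0.0342 in DESeq2. Tmpo measured 151, 169, 137 and 139 CPM in HP1α WT and 133, 130, 125 and 133 CPM in HP1γ WT, with a log2 fold change of 0.18 (adjusted p = 0.113, edgeR). Lbr, with 203 to 232 CPM beside 180 to 211 CPM, overlapped and had a log2 fold change of 0.14 (adjusted p = 0.204, edgeR). Lmnb2 (0.12), Sun1 (0.09) and Sun2 (0.00) had adjusted p of 0.454, 0.624 and 0.998 in the same test. The 95% interval of Sun2, from -0.13 to 0.14, was the narrowest of the 9.

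The KO groups of the lines share no sample with the WT groups, and they were compared in the same way after the data had been seen. In HP1α KO against HP1γ KO, 6 of the 9 were called, 3 lower and 3 higher in HP1α KO, beside 4921 calls (32.8%) among the 15020 genes tested, 16.8% lower and 16% higher (edgeR quasi-likelihood test, Benjamini-Hochberg adjustment). Lmnb1, Lmna and Lemd3 were again the lower ones, and Banf1, Lbr and Tmpo were higher. Samples were separate for 3 of the 9 (Lmnb1, Lbr and Banf1), beside 32.9% of all genes tested. In this comparison the targeted genes differ as well as the line, and these cannot be told apart.

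Lmnb1 measured 142, 117, 206 and 153 CPM in HP1α KO and 302, 303, 279 and 223 CPM in HP1γ KO. The log2 fold change was -0.86 ± 0.16 (SE), with an adjusted p of 0.00429 in the edgeR quasi-likelihood test. Lmna measured 43.8 to 73.9 CPM in HP1α KO against 106, 104, 122 and 68.1 CPM in HP1γ KO, where the lowest HP1γ KO sample fell below the highest HP1α KO sample, and its log2 fold change was -0.92 ± 0.20 (SE; adjusted p = 0.00743, edgeR). Lemd3 measured 64.4, 62.7, 85.9 and 65.2 CPM in HP1α KO against 137, 116, 98.1 and 84.4 CPM in HP1γ KO, with 1 sample of each group out of order, and its log2 fold change was -0.67 ± 0.15 (SE; adjusted p = 0.00952, edgeR).

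Banf1 measured 44.6, 41.9, 44.4 and 46.0 CPM in HP1α KO, all above the 27.4 to 35.2 CPM of HP1γ KO. The log2 fold change was 0.48 ± 0.08 (SE), with an adjusted p of 0.00337 in the edgeR quasi-likelihood test, and that of Eif1ad was -0.01. Lbr measured 240, 223, 207 and 222 CPM in HP1α KO, above the 181 to 203 CPM of HP1γ KO, with a log2 fold change of 0.21 (adjusted p = 0.0268, edgeR). Tmpo had a log2 fold change of 0.25 (adjusted p = 0.0483, edgeR), and the groups overlapped at 120 to 159 and 102 to 123 CPM.

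Lmnb1, Lmna, Lemd3 and Banf1 remained called when each of the 8 KO samples was left out in turn. The Lbr call was lost without HP1α KO sample 1 (adjusted p 0.0763), 2 (0.0619) or 4 (0.0594) or HP1γ KO sample 1 (0.0534) or 2 (0.0809), and on TPM with limma (0.286). The Tmpo call held in only 1 of these 8 fits, without HP1α KO sample 3, with adjusted p of 0.0577 to 0.126 in the other 7 (edgeR quasi-likelihood test). Sun1 was called only without HP1γ KO sample 3 (adjusted p = 0.0399, edgeR). Erythroid markers (3 of 3 called lower in HP1α KO) summed to 20.7 to 114 CPM in HP1α KO and to 51.0 to 729 CPM in HP1γ KO, and their part in these differences was not tested.

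**Figure D3:**
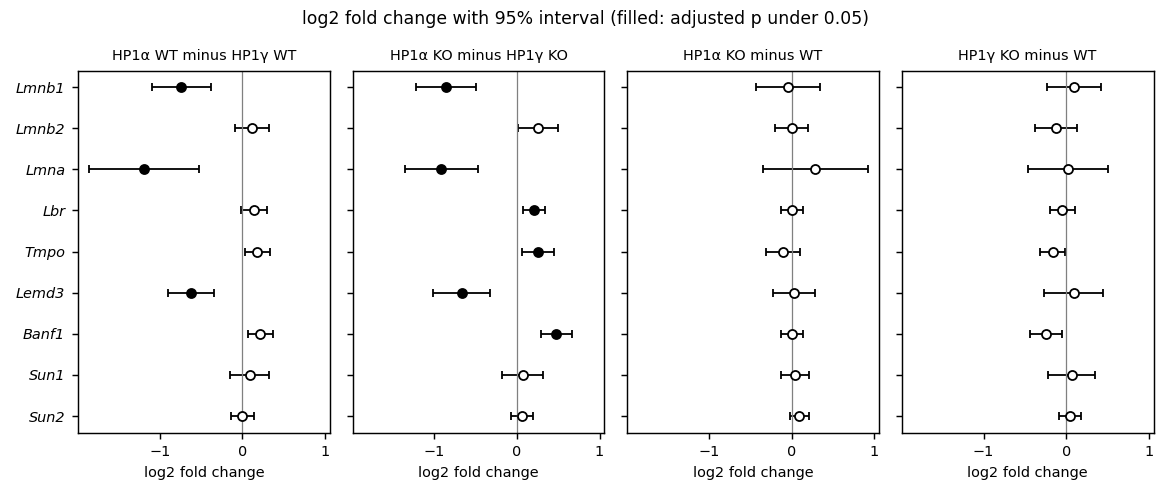
log2 fold change of each gene with its 95% interval (edgeR) in 4 comparisons; filled circles have an adjusted p under 0.05. Lmnb1, Lmna and Lemd3 lie left of 0 in both comparisons between lines, at -0.62 to -1.19 in WT, and no gene is filled in either comparison of KO with WT.

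Other genes of the envelope, sterol synthesis genes and proliferation genes were counted from lists set for this group. In HP1α KO against WT and in HP1γ KO against WT, none of the 118 listed genes tested was called (edgeR quasi-likelihood test). Among the 118 are 20 sterol synthesis genes and 30 proliferation genes. DESeq2 on the same samples called none either. In the HP1α line 2 of the 118 had an unadjusted p under 0.05, beside 4.27% of all genes. In the HP1γ line 20 did, beside 11.9%, and of these 11 were proliferation genes and 1 a sterol gene. With a sample left out these counts ran from 0 to 21 in the HP1α line (21 without HP1α WT sample 4) and from 8 to 26 in the HP1γ line (8 without HP1γ KO sample 1, 9 without HP1γ WT sample 2). Between the WT groups, lamina partners and other inner membrane proteins had 3 calls among 20 tested genes. Prr14, which ties HP1-bound heterochromatin to the lamina, was higher in HP1α WT (log2 fold change 0.28), and the torsin activators Tor1aip1 (-0.25) and Tor1aip2 (-0.26) were lower. The median of the list was 0.00, beside 0.02 for all genes and 12.8% of them called.

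Of 7 outer LINC and nesprin-binding genes tested, the formin Fhod1 was higher in HP1α WT (log2 fold change 0.42) and the SUN-domain gene Spag4 lower (-0.90). Of 6 lamin processing genes, Pggt1b, a prenyltransferase subunit, was higher (0.46). Of 6 genes that regulate BAF phosphorylation, the phosphatase subunits Ppp2ca (-0.52) and Ppp2r2a (-0.58) were lower and the kinase relative Vrk3 was higher (0.25). All of these passed an adjusted p of 0.05 in the edgeR quasi-likelihood test, as did 12.8% of all genes tested. There were 21 calls among all 118 listed genes, sterol and proliferation genes included. They fell to 7 without HP1α WT sample 1, to 8 without HP1γ WT sample 1 and to 8 without HP1γ WT sample 2. Over all genes tested, calls fell from 1896 to 573, 613 and 626 in the same fits.

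Nuclear pore genes had 5 calls among 29 tested, all lower in HP1α WT, beside 12.8% of all genes called and 8.25% called lower. They were Ranbp2, a cytoplasmic filament protein (log2 fold change -0.73, adjusted p = 0.00403, edgeR), the basket proteins Nup153 (-0.38) and Nup50 (-0.39), the channel protein Nup54 (-0.33) and the membrane protein Pom121 (-0.38). The median of the list was 0.02, as over all genes. In the KO groups, 8 of the 29 pore genes were lower and 4 higher in HP1α KO, with Ranbp2 at -1.09. Of all genes tested there, 16.8% were lower and 16% higher.

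Sterol synthesis, the pathway in which Lbr acts as a reductase, had 6 calls among 20 tested genes, 3 higher and 3 lower in HP1α WT, beside 12.8% of all genes called. Among them Fdft1 (log2 fold change 0.47), Lss (0.49) and Fdps (0.37) were higher in HP1α WT, and Cyp51 (-0.76) and Hsd17b7 (-0.49) were lower. Of 30 proliferation genes, Pcna alone was called, lower in HP1α WT (-0.33), although the list's median was 0.26. In KO against WT none of the 30 was called in either line, yet all had log2 fold changes below 0. They ran from -0.57 to -0.04 in HP1α KO (median -0.29) and from -0.46 to -0.01 in HP1γ KO (median -0.20). An unadjusted p under 0.05 (edgeR) was seen for 1 and 11 of them, beside 4.27% and 11.9% of all genes. The cause was not tested. Proliferation genes summed to 1771 to 2431 CPM in HP1α WT and to 1923 to 2398 CPM in HP1γ WT, with overlap. Of the cell type markers, the CD4 T cell list had 1 call among 6 tested genes (Cd28, log2 fold change -0.60, list median 0.00), the memory list 1 among 3 (Cd44, -0.35), the NK list 1 among 2 (Eomes, -0.68) and the plasma cell list 1 among 3 (Sdc1, -1.69), all lower in HP1α WT, while the CD8, naive, Treg, B cell, myeloid, erythroid and stromal lists had 0 calls by the edgeR quasi-likelihood test.

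**Figure D4:**
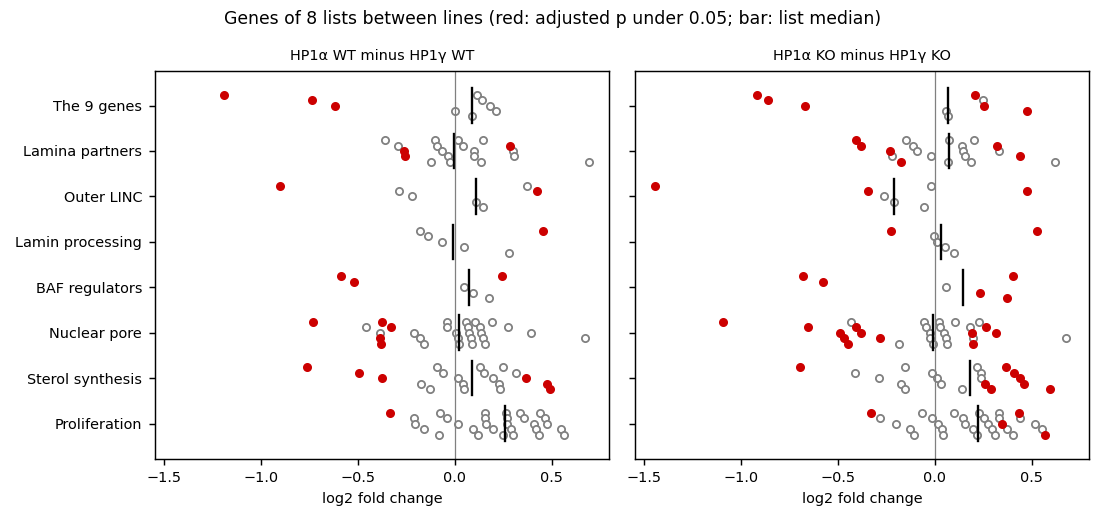
log2 fold change (edgeR) of the genes of 8 lists between lines, in WT on the left and KO on the right; each circle is a gene, red circles have an adjusted p under 0.05 and bars mark list medians. The 5 red nuclear pore genes in WT all lie below 0, and in KO red circles stand on both sides of 0 in each of the 8 lists.

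The genes whose levels most resembled each member over all 16 samples were sought among 9745 genes with a mean of at least 5 CPM. Samples fall apart by line, so for the genes chosen in this way the likeness is given within the HP1α and then the HP1γ line (n = 8 samples each, which share library preparation and differ in depth), as a description. A gene nearer to a member within 1 line may exist. Lemd3 was tracked most closely, by the ubiquitin ligases Traf6 (r = 0.987 and Spearman's rho 0.929 in the HP1α line, r = 0.967 and rho 0.952 in the HP1γ line) and Rnf125 (r = 0.974 and 0.951). Lmnb1 was nearest to Cep57, a centrosomal gene (r = 0.927 and 0.944), and to the kinase gene Map2k3 (r = 0.909 and 0.926). Lbr was nearest to Jpt2 (r = 0.981 and 0.841) and Timm9 (r = 0.746 and 0.898).

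For Lmna the nearest genes were Actr5 (r = 0.901 and 0.798) and Zc3h12a, an RNase gene of T cell activation (r = 0.913 and 0.643). Tmpo was nearest to Psmg2 (r = 0.945 and 0.870) and Cat (r = 0.850 and 0.961), and Lmnb2 to Alkbh7 (r = 0.875 and 0.904) and Dvl2 (r = 0.933 and 0.891). Banf1 was nearest to Mrps16 (r = 0.266 and 0.977) and Ccs (r = 0.473 and 0.932). Sun1 was nearest to Rasa3 (r = 0.694 and 0.962, with rho 0.357 in the HP1α line) and Mical1 (r = 0.702 and 0.952). Sun2 was nearest to Unc5a (r = 0.918 and 0.845) and Rusc1 (r = 0.776 and 0.855, with rho 0.357 in the HP1α line). No member was among the 2 genes nearest to another member.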

How the data were processed

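The 16 RNA-Seq samples were grouped by their titles. The treatment labels name transferred cells, which the methods of the paper do not describe for memory cells, and they were left aside. The authors mapped trimmed reads to GRCm39 with STAR, estimated gene counts with Salmon (nf-core) and deposited estimated counts per gene without normalization, 11.6% of which are not whole. The authors also deposited TPM, which keep no depth.

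Counts were rounded and tested with R 4.3.3 and edgeR 4.0.16 (TMM, filterByExpr with a minimum count of 10, quasi-likelihood test, Benjamini-Hochberg adjustment over all genes tested, call at an adjusted p under 0.05), in fits of the 8 samples compared, or of all 16 for the interaction. Single genes were also compared by exact permutation over the 70 splits of 4 against 4 samples (scipy 1.17.1). Alternatives were DESeq2 1.42.0, RLE size factors, other filters on low counts, a joint fit of the 4 groups, a replicate block, limma 3.58.1 on log2(TPM + 1) and log2(TPM + 0.1), and each sample left out in turn. The comparison of the KO groups, DESeq2 with the block and the omission of HP1α WT samples 3 and 4 together were chosen after seeing the data. On simulated counts for the WT comparison (14565 genes) the test recovered 77.8% of genes changed by 1 log2 unit and 94.9% of those changed by 2, and 8.06% of its calls were false. It recovered 76% of genes changed by 1 log2 unit in HP1α KO (14616 genes), 58.6% in HP1γ KO (14733 genes), 49.5% in the interaction (15526 genes) and 68.7% between the KO groups (14729 genes). No 2 replicates were alike within counting error (24 pairs, chi-square per gene of at least 10.4).

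The members and lists were chosen with earlier results of these data known, and 1 gene of the sterol list is not reported here. The text names all 9 members, Cbx5 and Cbx3, from each list the called genes (at most 4 with the smallest p), and for each member the 2 genes with the highest Pearson r of log2 CPM (prior count 2) over the 16 samples. Fdps, Pom121, Cd28, Cd44, Eomes, Sdc1 and the genes overlapping members are outside this rule and were named after their values were seen. Shared sequence was found with blastn 2.17.0 (at least 150 nt at 98% identity or more). Positions are from GENCODE vM39 (GRCm39), which holds 56017 of the deposited genes and is a later release than the one counted on.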

Additional observations from a re-analysis of the deposited data

Results flagged for a closer look

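In the 36 checks of a gene in a group of 4 samples, 2 samples stood apart by Dixon's criterion, and chance flags about 1 group in 20. Lmnb2 was lowest in HP1α WT sample 3 (22.8 CPM, nearest sample 24.3 CPM), with a gap of 0.854 of the group's range. Lemd3 was highest in HP1α KO sample 3 (85.9 CPM, nearest sample 65.2 CPM), with a gap of 0.891 of the range. Without that sample, the log2 fold change of Lemd3 in HP1α KO against WT was -0.09 and its call did not change in the 3 comparisons that hold the sample.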

How the results depend on the processing

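The members' calls in KO against WT and in the interaction did not change under any of the alternatives run. Between the WT groups, 3 members were called, 0 with the replicate block and 0 to 3 when a sample was left out, and between the KO groups 6 were called and 4 to 6 when a sample was left out. The labels do not say whether replicate numbers pair the samples. Same-numbered deviations correlated at -0.19 to -0.10 in the WT groups and -0.10 to 0.08 in the KO groups. Within lines the correlation was 0.08 to 0.27 for HP1α and -0.01 to 0.19 for HP1γ. Of 4 samples, 0, 1, 2 and 1 in that order were nearest to their own number. With the replicate block, the SE in HP1α KO against WT fell from 0.174 to 0.065 for Lmnb1 and from 0.284 to 0.138 for Lmna. It rose there for Sun2 alone. In HP1γ KO against WT it fell for all 9 members, from 0.161 to 0.053 for Lemd3. Between the WT groups it rose from 0.163 to 0.173 for Lmnb1. The intervals given above are without the block. Genes called were 0 in HP1α KO against WT (DESeq2 5, no filter 1, DESeq2 with the replicate block 16, limma on TPM 1 with either pseudocount, 0 to 3 with a sample left out) and 49 in HP1γ KO against WT (DESeq2 255, a minimum of 10 counts throughout 31, a joint fit of 16 samples 96, DESeq2 with the block 441, limma 28 and 32, 30 to 49 with a sample left out). Between the WT groups 1896 genes were called (replicate block 577, limma 1175 and 1210, without HP1α WT samples 3 and 4 1006, 573 to 2185 with a sample left out), with HP1α WT sample 1 and HP1γ WT samples 1 and 2 giving 573, 613 and 626, and between the KO groups 4921 (3350 to 5202 with a sample left out). The interaction gave 8 calls (DESeq2 72, no filter 14, replicate block 13, limma on log2(TPM + 0.1) 4, 7 to 12 with a sample left out). Of the genes called, 674 were higher and 1222 lower in HP1α WT against 250 and 925 by limma on log2(TPM + 1), and 2399 were higher and 2522 lower in HP1α KO against 1111 and 2357. Among the 118 listed genes between the WT groups, 7 were higher and 14 lower, against 1 and 12 by limma and 1 and 3 with the replicate block. The counts were 1 and 6 without HP1α WT sample 1 and 1 and 7 without HP1γ WT sample 1. They were 2 and 6 without HP1γ WT sample 2, and 4 and 9 without HP1α WT samples 3 and 4. The cause of these shifts was not tested.

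Signs turned only in log2 fold changes close to 0 that were never called, save that Sun1 in the KO groups was called in another fit. These were Lmnb2 in HP1α KO (-0.0018 with at least 10 counts, -0.0054 with the replicate block, -0.0034 by DESeq2 with the block, -0.0284 and -0.0312 by limma), Banf1 there (-0.0288 and -0.0292 by limma), Lbr in HP1γ KO (0.0358 and 0.0362 by limma), Sun2 between the WT groups (-0.0017 by DESeq2, -0.0026 with RLE factors, -0.0060 with at least 10 counts, -0.0020 by DESeq2 with the block, -0.0155 without samples 3 and 4) and, in the interaction by limma, Lbr (-0.0334 and -0.0337), Tmpo (-0.0445 and -0.0448) and Sun2 (-0.0163 and -0.0164). With a sample left out, in HP1α KO against WT the ranges were -0.0158 to 0.0408 for Banf1, -0.0290 to 0.0375 for Lbr, -0.0918 to 0.0868 for Lemd3, -0.215 to 0.0955 for Lmnb1, -0.0653 to 0.0559 for Lmnb2 and -0.0111 to 0.0932 for Sun1. In HP1γ KO they were -0.0415 to 0.201 for Lemd3, -0.116 to 0.190 for Lmna and -0.0639 to 0.143 for Sun1, and in the interaction -0.172 to 0.0804 for Lemd3, -0.297 to 0.0123 for Lmnb1, -0.0923 to 0.116 for Sun1 and -0.00229 to 0.130 for Tmpo. Sun2 ranged from -0.0142 to 0.0327 between the WT groups and Sun1 from -0.00769 to 0.207 between the KO groups.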
